A study of Mus musculus with 29 samples.

Results

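The genes described here are 32 mouse genes of cholesterol synthesis, transport and control, taken by symbol from a fixed list and all found among the 24346 genes of an RNA-sequencing table. The list was chosen with earlier results of these data known. Shares of all genes printed beside its counts therefore give scale and are not a test of the list. They comprise 19 enzymes that lead from acetyl-CoA to cholesterol or branch from that route, 4 genes that control the transcription factor SREBP2, 5 genes of intracellular sterol transport and esterification, and 4 genes of the LXR arm, which responds to sterol excess. Levels are given as FPKM, fragments scaled to transcript length and to sequencing depth, which allows comparison between genes of different length.

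The samples came from male C57BL/6J mice, an inbred strain, all made obese by 10 weeks of high-fat feeding and then kept for 4 weeks on one of 4 regimens. HFD mice stayed on the high-fat diet with free access, and HFD-IF mice ate it with fasting every other day. CC mice were moved to control chow with free access, and CC-IF mice received the chow with intermittent fasting. The 14 liver libraries comprised 4 of HFD, 2 of HFD-IF, 4 of CC and 4 of CC-IF, and the 15 hippocampal libraries comprised 4 of HFD, 4 of HFD-IF, 4 of CC and 3 of CC-IF. No group had been lean throughout, so HFD and CC are both groups with an obese history. Whether tissue was taken on a fed or a fasted day is not given in the sources used here. Below, fasted names the HFD-IF and CC-IF regimens and fed those with free access, not the state at sampling. Libraries are numbered from 0 within each group, as in the deposited table.

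Cholesterol is built from acetyl-CoA through mevalonate, isoprenoid diphosphates, squalene and lanosterol, and the liver is a main site of that synthesis as well as of cholesterol secretion and disposal. SREBP2, encoded by Srebf2, switches on most enzymes of the route. SCAP escorts it out of the endoplasmic reticulum when sterols are low, and the proteins encoded by Insig1 and Insig2 hold that complex back when sterols are high. LXR alpha and LXR beta, encoded by Nr1h3 and Nr1h2, are activated by oxysterols and switch on efflux genes such as Abca1. Neurons and glia make their own cholesterol, since lipoproteins do not cross the blood-brain barrier.

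Many of these genes are textbook targets of SREBP2, whose binding sites in promoters typically sit near sites for NF-Y. RefSeq promoters (GRCm38.p6) were matched for 26 of the 32 genes, and the 250 bases before each start were searched on both strands. CCAAT, the NF-Y box, was present in 21 of the 26 genes and in 15 of the 16 matched synthesis enzymes, against 37.5% of all 27025 genes with a promoter. CACNCCAC, the core of a sterol regulatory element, was present in 3 of the 26 genes (Hmgcs1, Insig1 and Acat2), against 6.05% of genes. TCACNCCAC, which contains that core, was present in 1 of them, Hmgcs1, from 137 to 129 bases before the start, against 1.22% of genes. GGGCGG, the GC box, was present in 21 of 26 genes against 35.4%. A single fixed form of the LXR element, a direct repeat with a spacer, was present in 0 of 26 genes against 0.0851%. Stretches that differ from that form at any set base were not counted. The count therefore does not show that the promoter of Abca1, or of another gene, lacks an LXR element. These letter matches describe the windows and are not binding sites. The 6 stretches below are shown because 4 belong to genes that fell in fasted liver (Hmgcs1, chr13:119690101-119690350, plus strand; Mvd, chr8:122443423-122443672, minus strand; Nsdhl, chrX:72918271-72918520, plus strand; Insig2, chr1:121332590-121332839, minus strand) and 2 to genes that passed the test in no liver comparison (Ggps1, chr13:14063489-14063738, minus strand; Abca1, chr4:53159896-53160145, minus strand). Capitals mark CCAAT or its complement ATTGG and the sterol regulatory element core, and each stretch runs 5′ to 3′ on the gene's strand. For Insig2 the first of its 3 RefSeq starts is shown, and the measured level pools all of them.
Hmgcs1: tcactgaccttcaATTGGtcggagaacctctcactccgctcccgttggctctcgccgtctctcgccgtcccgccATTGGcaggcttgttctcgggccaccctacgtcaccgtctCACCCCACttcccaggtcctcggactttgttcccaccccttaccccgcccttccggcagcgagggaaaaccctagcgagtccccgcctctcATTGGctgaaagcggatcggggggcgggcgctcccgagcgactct
Mvd: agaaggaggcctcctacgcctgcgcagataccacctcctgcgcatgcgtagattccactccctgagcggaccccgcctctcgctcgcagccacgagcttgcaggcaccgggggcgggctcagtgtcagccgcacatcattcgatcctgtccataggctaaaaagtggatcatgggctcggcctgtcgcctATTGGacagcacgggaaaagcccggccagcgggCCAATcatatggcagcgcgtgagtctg
Nsdhl: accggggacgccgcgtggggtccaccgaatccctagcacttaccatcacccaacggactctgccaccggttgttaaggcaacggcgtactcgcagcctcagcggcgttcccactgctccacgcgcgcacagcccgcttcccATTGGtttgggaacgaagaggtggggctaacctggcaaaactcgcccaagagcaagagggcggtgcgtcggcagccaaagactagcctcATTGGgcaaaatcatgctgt
Insig2: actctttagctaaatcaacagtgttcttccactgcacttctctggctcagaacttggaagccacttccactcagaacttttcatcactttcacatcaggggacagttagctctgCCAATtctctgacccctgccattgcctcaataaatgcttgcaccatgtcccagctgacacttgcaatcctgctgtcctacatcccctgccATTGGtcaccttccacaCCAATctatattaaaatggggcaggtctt
Ggps1: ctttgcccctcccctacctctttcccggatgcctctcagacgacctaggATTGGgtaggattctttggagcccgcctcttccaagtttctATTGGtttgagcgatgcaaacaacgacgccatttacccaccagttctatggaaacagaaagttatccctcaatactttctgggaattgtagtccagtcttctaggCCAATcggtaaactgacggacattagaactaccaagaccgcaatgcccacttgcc
Abca1: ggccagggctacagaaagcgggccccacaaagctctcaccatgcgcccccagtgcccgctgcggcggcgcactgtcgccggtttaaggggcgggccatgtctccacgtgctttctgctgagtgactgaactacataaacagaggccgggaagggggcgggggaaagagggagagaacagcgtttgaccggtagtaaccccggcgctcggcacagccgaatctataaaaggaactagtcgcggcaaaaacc
The Hmgcs1 stretch holds 3 NF-Y boxes and the only sterol element core of the 6. The Ggps1 stretch also holds 3 NF-Y boxes, and the Abca1 stretch holds 0 of them.

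The liver libraries had like scales, with upper quartiles of 8.45 to 8.83 FPKM, and low values put their depth at about 9.97 to 16.7 M fragments, where M stands for mega (12.2 to 38.5 M in hippocampus). All 6 hepatocyte markers were above 0 in liver, except that Alb is listed at 0 in 8 of the 14 livers, all 4 of CC-IF among them, although the other markers were high there. An exact 0 in this table can therefore be a failed estimate. None of the 32 genes is listed at 0 in liver. The neuronal markers Snap25, Neurod6 and Slc17a7 are listed at 0 in every liver, and the summed level of 7 neuronal markers was 1983 to 2392 FPKM in hippocampus. One HFD-IF liver, library 1, stood apart: its 8 markers of infiltrating macrophages summed to 212 FPKM, against 28.9 in the other HFD-IF liver and 17.9 to 62.1 in the remaining 12. Its 6 Kupffer cell markers summed to 295 FPKM (63.8 to 180 in the other livers) and its 6 stellate cell and fibroblast markers to 471 FPKM (137 to 235). Of its hepatocyte markers, Ttr was at 2955 FPKM (5023 to 8397 in the other livers) and Serpina3k at 1425 FPKM (2295 to 8052). Alb, at 29210 FPKM, was the lowest of the values not listed at 0. Apoa1, Cps1 and Hnf4a lay within the range of the other livers. Bile duct markers (4 genes) summed to 5.29 to 14.04 FPKM over all livers. In whole tissue, fewer cells of a type and less RNA per cell cannot be told apart.

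Differences were tested with limma on log2(FPKM + 1), with p-values adjusted by the Benjamini-Hochberg method over all genes tested in the tissue (11497 in liver) and called at 0.05. A log2 change below is the difference of group means on that scale, with its standard error, and understates the change of genes with low levels. All 32 genes passed the filter on low values in liver. The comparisons share control libraries, so that their results for one gene are not independent.

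Along the synthesis route, levels were highest in HFD livers and lowest in the 2 fasted regimens. Of the 19 enzymes, 18 had their highest group mean in HFD and 1, Ggps1, in CC-IF; the lowest mean was that of HFD-IF for 10 and of CC-IF for 9. The summed level of the 19 enzymes was 1356, 1463, 2263 and 1801 FPKM in HFD libraries 0 to 3, 598 and 338 FPKM in the HFD-IF libraries, 1005, 1706, 1206 and 807 FPKM in CC, and 561, 538, 413 and 477 FPKM in CC-IF. All 6 fasted livers lay below all 8 livers with free access to food. Within a group the enzymes moved together by library: HFD library 2 was the highest of its group for 17 of the 19, CC library 1 for 18, and CC library 3 was the lowest for 15.

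**Figure D1:**
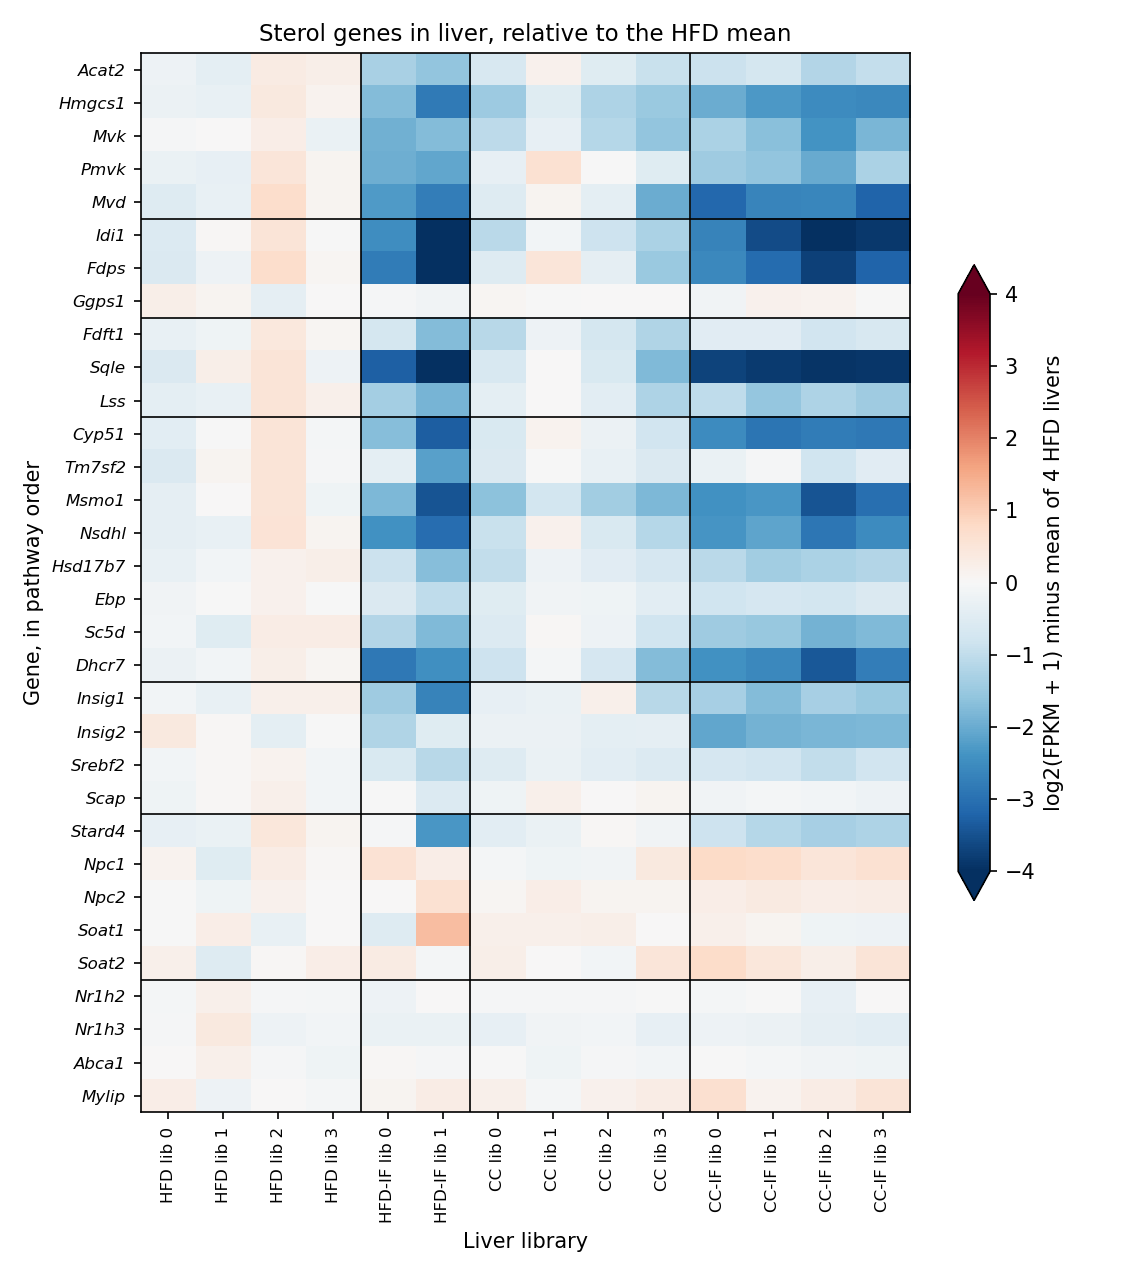
Heat map of the 32 genes (rows, in pathway order) in the 14 liver libraries (columns), coloured by log2(FPKM + 1) minus the mean of the 4 HFD livers; colours stop at -4 and 4. Most synthesis enzymes and the Insig and Srebf2 rows are blue in the HFD-IF and CC-IF columns. Ggps1 is an exception. Tm7sf2 and Fdft1 had the smallest falls of the other enzymes in CC-IF against HFD (log2 changes of -0.398 and -0.574, not called). All CC-IF libraries of Fdft1 still lay below its HFD libraries. Most of the LXR rows stay near white.

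The first comparison asked what moving from the high-fat diet to chow did without fasting. In liver, 1 of the 32 genes passed the test in CC against HFD, Hmgcs1, which fell; 1.97% of all genes tested were called lower and 0.339% higher. Hmgcs1 encodes cytosolic HMG-CoA synthase, the second step of the route. Its levels were 178, 173, 273 and 232 FPKM in the 4 HFD livers and 76.5, 149.7, 89.5 and 75.3 FPKM in the 4 CC livers. The groups did not overlap, and the log2 change was -1.16 ± 0.26 (adjusted p = 0.0396, limma).

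The other enzymes were mostly lower in CC without passing the test. Of the 19, 18 had negative log2 changes, with a median of -0.575 against -0.0162 over all genes tested, and the remaining one, Ggps1, was at 0.025. Msmo1, which removes methyl groups from the sterol ring, was at 70.1, 91.5, 130.5 and 80.2 FPKM in HFD and at 28.5, 54.1, 33.8 and 25.6 FPKM in CC. Its groups did not overlap, and its adjusted p was 0.0653 (limma, log2 change -1.39 ± 0.36). Mvk, mevalonate kinase, was at 17.4, 18.2, 21.9 and 14.7 FPKM in HFD and at 8.09, 14.2, 7.52 and 5.30 FPKM in CC (-1.03 ± 0.26, adjusted p = 0.0543 in limma). Together with Srebf2, these genes made 4 of 32 whose CC libraries all lay below the HFD libraries, where 9.5% of all genes tested did so. The Hmgcs1 call was lost without HFD library 0, 2 or 3, without CC library 0, 2 or 3, or without CC-IF library 1 or 3. Without HFD-IF library 0, or without HFD-IF library 1, 4 genes were called, where 4.43% and 4.44% of all genes tested were. Without CC library 1, CC-IF library 0 or CC-IF library 2, 2 genes were called, where 0.861%, 1.97% and 2.68% of all genes were.

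Fasting on the high-fat diet gave lower levels over nearly the whole route. In HFD-IF against HFD, 18 of 32 genes fell and 0 rose in liver, where 0.965% of all genes tested were called lower and 0.357% higher. By step, the calls were 5 of 5 precursor enzymes, 2 of 3 isoprenoid enzymes, 2 of 3 squalene enzymes, 7 of 8 sterol enzymes, and Insig1 and Srebf2 among the 4 control genes. The median log2 change of the 19 enzymes was -2.015, against -0.0101 over all genes tested, and all 19 were negative. In 21 of the 32 genes both HFD-IF libraries lay below every HFD library, against 12.8% of all genes tested.

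Sqle, squalene epoxidase (chromosome 15, 59315077 to 59331192, GRCm38), had the smallest p. It was at 19.5, 35.3, 43.2 and 25.8 FPKM in HFD and at 2.17 and 0.905 FPKM in HFD-IF, and the log2 change was -3.64 ± 0.40 (adjusted p = 0.00617, limma). Nsdhl, a dehydrogenase that acts in demethylation of the sterol ring, was at 26.2, 27.5, 50.6 and 37.4 FPKM in HFD and at 5.61 and 3.24 FPKM in HFD-IF (-2.73 ± 0.35, adjusted p = 0.00701, limma). Dhcr7, whose product carries out a final reduction to cholesterol, was at 45.3, 49.0, 62.9 and 56.0 FPKM in HFD and at 6.49 and 8.95 FPKM in HFD-IF (-2.64 ± 0.36, adjusted p = 0.00936, limma). In these 3 genes the HFD-IF libraries lay far below the lowest HFD library. Hmgcs1 was at 62.3 and 28.8 FPKM in HFD-IF, Mvk at 4.03 and 4.68 FPKM and Msmo1 at 25.4 and 7.34 FPKM, all below the HFD libraries. Cyp51 was at 34.8, 47.1, 68.3 and 44.5 FPKM in HFD and at 13.7 and 3.91 FPKM in HFD-IF. Acat2 was at 35.4, 31, 51.2 and 48.1 FPKM in HFD and at 15.8 and 12.9 FPKM in HFD-IF, again without overlap. Fdps, which builds farnesyl diphosphate, and Idi1, which isomerises isopentenyl diphosphate, had log2 changes of -3.62 and -3.48, and their mean FPKM in HFD-IF was 8.69% and 9.77% of the HFD mean.

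The 3 enzymes that did not pass lie at different steps. Ggps1, which makes geranylgeranyl diphosphate on a branch that leaves the route to sterols, was at 3.26 to 5.46 FPKM in HFD and at 4.28 and 4.01 FPKM in HFD-IF. Fdft1, squalene synthase, was at 39.8, 43.4, 66.7 and 52.0 FPKM in HFD and at 30.2 and 14.3 FPKM in HFD-IF (-1.21 ± 0.30, adjusted p = 0.0726, limma). Tm7sf2, a sterol reductase, differed between the fasted pair, at 63.2 and 17.6 FPKM, against 55, 90.1, 120.7 and 80.2 FPKM in HFD (adjusted p = 0.13, limma).

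Of the 2 HFD-IF libraries, the calls depended on library 1. Without HFD-IF library 1, the liver with high macrophage markers, 0 genes were called in limma (21 of 32 had an unadjusted p under 0.05) and the median of the 19 enzymes was -1.739; over all genes tested, 0.0435% were called. Without library 0, 24 were called (22 lower and 2 higher) and the median was -2.179, in a fit that called 14.2% of all genes tested. Fitted on the HFD and HFD-IF livers alone, 3 genes were called, and 0.0696% of all genes. In the first 2 of these fits the lone library was assumed to vary like the other groups. The enzymes' levels were thus lower than in HFD in either library, in 19 of 19 compared with the HFD mean. The part of the macrophage signal in these changes was not tested.

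**Figure D2:**
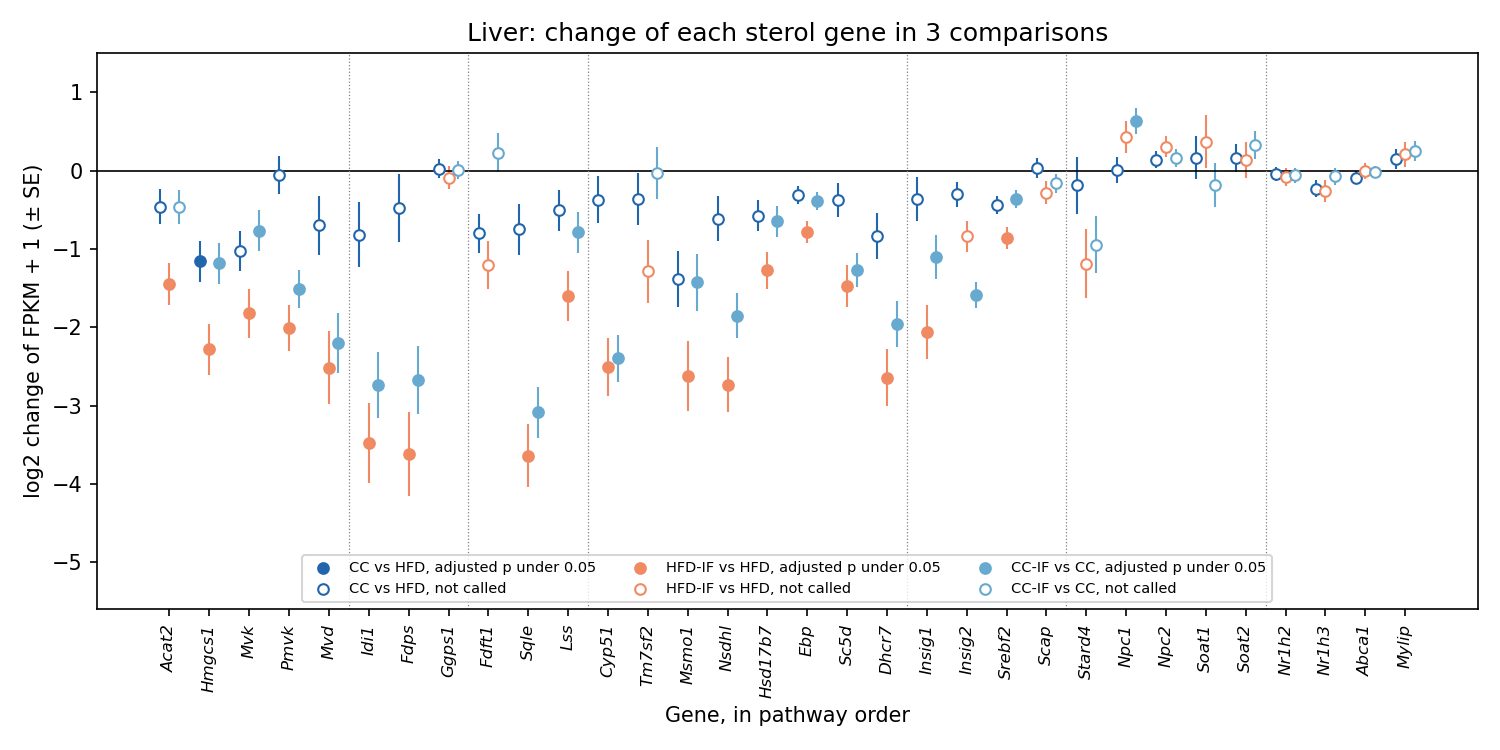
Log2 change of FPKM + 1 with its standard error (vertical axis) for each gene in pathway order, in 3 liver comparisons; filled points passed an adjusted p of 0.05. The synthesis enzymes range from -3.64 to -0.093 for HFD-IF against HFD, and the 4 genes at the right, of the LXR arm, have no filled point.

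On chow, fasting was compared with free feeding in 4 against 4 livers. In CC-IF against CC, 18 of 32 genes fell and 1, Npc1, rose, where 9.77% of all genes tested were called lower and 14.2% higher. The calls were 4 of 5 precursor enzymes, 2 of 3 isoprenoid, 2 of 3 squalene and 7 of 8 sterol enzymes, with Insig1, Insig2 and Srebf2. The 19 enzymes had a median log2 change of -1.273, against 0.0221 over all genes tested. In 17 of the 32 genes every CC-IF library lay below every CC library, against 11.4% of all genes tested. Markers of other cells were summed for the same contrast. The 5 endothelial markers summed to 73.4 to 94.0 FPKM in CC-IF and 95.8 to 109 FPKM in CC, without overlap. In the same order, the 6 Kupffer markers summed to 63.8 to 98.8 and 97.6 to 180 FPKM, with overlap. The 8 macrophage markers summed to 17.9 to 62.1 and 33.7 to 58.5 FPKM, and the 6 stellate markers to 183 to 235 and 160 to 195 FPKM. Those ranges overlapped too. A sum mostly follows its most abundant markers, so it does not show that each marker of a list moved. None of these markers is listed at 0 throughout a liver group, and their part in the changes was not tested.

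Among the precursor enzymes, Mvd, which forms isopentenyl diphosphate, had the most negative log2 change, -2.20 ± 0.38 (adjusted p = 0.00137, limma), and a CC-IF mean of 12.8% of the CC mean. Hmgcs1 was at 51.8, 42.4, 35.9 and 34.55 FPKM in CC-IF, all below the lowest CC liver at 75.3 FPKM (-1.19 ± 0.26, adjusted p = 0.00611, limma). Pmvk, phosphomevalonate kinase, was at 13.8 to 23.7 FPKM in CC-IF and at 41.2 to 89.1 FPKM in CC. Mvk was at 6.82, 4.88, 2.63 and 4.28 FPKM in CC-IF and overlapped with CC, where its lowest library was at 5.30 FPKM. Acat2, the cytosolic thiolase of the first step, was at 21.9, 24.8, 17.4 and 20.5 FPKM in CC-IF and at 25.9, 46.3, 28.6 and 21.2 FPKM in CC, and did not pass (adjusted p = 0.142, limma). Acat2 has a near-identical neighbour, Acat3, with liver group means of 141.7 to 169 FPKM, and how the authors' counting divided fragments between them is not stated.

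Idi1 and Fdps fell by 2.74 and 2.68 on the log2 scale. Fdps was at 44.4, 31.5, 19.4 and 28.2 FPKM in CC-IF and at 189.0, 376, 211 and 95.3 FPKM in CC, with no overlap. Ggps1, the branch enzyme, was at 3.97 to 5.16 FPKM in CC-IF and at 4.47 to 4.84 FPKM in CC (log2 change 0.01 ± 0.12). Its CC-IF mean was 101% of the CC mean, against 14.2% for Fdps.

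The squalene steps were uneven. Sqle was at 18.5, 30.2, 18.99 and 8 FPKM in CC and at 1.36, 1.17, 1.01 and 1.06 FPKM in CC-IF, 6.08% of the CC mean (-3.08 ± 0.33, adjusted p = 6.28e-05, limma). Directly before it on the route, Fdft1 was at 22.6, 42.7, 30.01 and 21.1 FPKM in CC and at 35.8, 36.1, 28.8 and 31.5 FPKM in CC-IF, with overlapping groups (0.23 ± 0.25, adjusted p = 0.55, limma). Exons of Fdft1 overlap those of Ctsb, a gene on the opposite strand, over 774 bases; Ctsb was at 112 FPKM in CC and 111.3 FPKM in CC-IF, and whether counting used the strand is not stated. Lss, lanosterol synthase, fell by 0.79 ± 0.26 on the log2 scale with overlapping groups (adjusted p = 0.0411, limma).

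Of the 8 sterol-ring enzymes, 7 fell and Tm7sf2 did not pass. Cyp51, the lanosterol demethylase, was at 30.5, 51.7, 39.7 and 27.6 FPKM in CC and at 7.45, 5.42, 5.92 and 5.70 FPKM in CC-IF (-2.40 ± 0.30, adjusted p = 0.000189, limma). Dhcr7 was at 29.1, 49.8, 32.8 and 15.2 FPKM in CC and at 9.03, 8.04, 4.09 and 6.84 FPKM in CC-IF (-1.96 ± 0.29, adjusted p = 0.000555, limma). Nsdhl was at 18.01, 38.7, 22.2 and 15.03 FPKM in CC and at 5.92, 7.14, 3.70 and 5.19 FPKM in CC-IF (-1.86 ± 0.29, adjusted p = 0.000667, limma). The CC-IF libraries of all 3 genes formed a narrow low band below the CC libraries, of which library 3 was always the nearest. Sc5d, lathosterol oxidase and the most abundant of these enzymes, was at 102 to 141 FPKM in CC-IF against 215 to 391 FPKM in CC. Msmo1 was at 16.05, 17.2, 7.29 and 10.2 FPKM in CC-IF. Msmo1, Hsd17b7 and Ebp fell by 1.43, 0.65 and 0.39 on the log2 scale. Tm7sf2 was at 55.8, 83.1, 67.1 and 55.8 FPKM in CC and at 68.7, 80.3, 47.0 and 60.4 FPKM in CC-IF (-0.04 ± 0.33). Its exons share 532 bases on the same strand with Vps51, at 8.72 FPKM in CC and 8.31 FPKM in CC-IF. Calls of Mvk, Lss, Hsd17b7, Ebp and Srebf2 were the ones lost when a single library was left out; 14 genes were called in the fits without CC library 1, CC library 2 or CC-IF library 2.

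The genes that hold SREBP2 in check were themselves lower in fasted liver. Insig1, which is also a target of SREBP2, was at 237, 208, 295 and 292 FPKM in HFD, 94.1 and 38.8 FPKM in HFD-IF, 205, 213, 295 and 119 FPKM in CC, and 102, 76.2, 101.4 and 90.2 FPKM in CC-IF. It fell on the high-fat diet (-2.06 ± 0.34, adjusted p = 0.0189, limma) and on chow (-1.10 ± 0.28, adjusted p = 0.0127, limma), and in neither case did fasted and fed libraries overlap.

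Insig2 followed another order. It was at 201, 159, 118 and 151 FPKM in HFD, 66.5 and 110.6 FPKM in HFD-IF, 132, 130.3, 119 and 119 FPKM in CC, and 35.7, 40.9, 43.2 and 44.1 FPKM in CC-IF. CC-IF libraries spanned a narrow range and lay below all others. The log2 change was -1.59 ± 0.16 on chow (adjusted p = 5.15e-05, limma) and -0.84 ± 0.20 on the high-fat diet (adjusted p = 0.0618, limma). Their difference, -0.75 ± 0.26, did not pass (adjusted p = 0.159, limma).

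Srebf2 itself moved less. It was at 22.7, 25.5, 27.1 and 22.8 FPKM in HFD, 15.7 and 10.9 FPKM in HFD-IF, 16.7, 20.4, 18.04 and 16.3 FPKM in CC, and 15.1, 13.8, 11.8 and 14.1 FPKM in CC-IF. The order of groups was HFD, CC, then the fasted groups, which overlapped with each other. It fell with fasting on the high-fat diet (-0.86 ± 0.14, adjusted p = 0.0185, limma) and on chow (-0.36 ± 0.12, adjusted p = 0.0387, limma). Scap, the sterol sensor, was at 46.6 to 60.9 FPKM in CC and 46.2 to 50.1 FPKM in CC-IF and passed in neither fasting comparison. These values are messenger RNA levels and do not measure the processed SREBP2 protein.

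**Figure D3:**
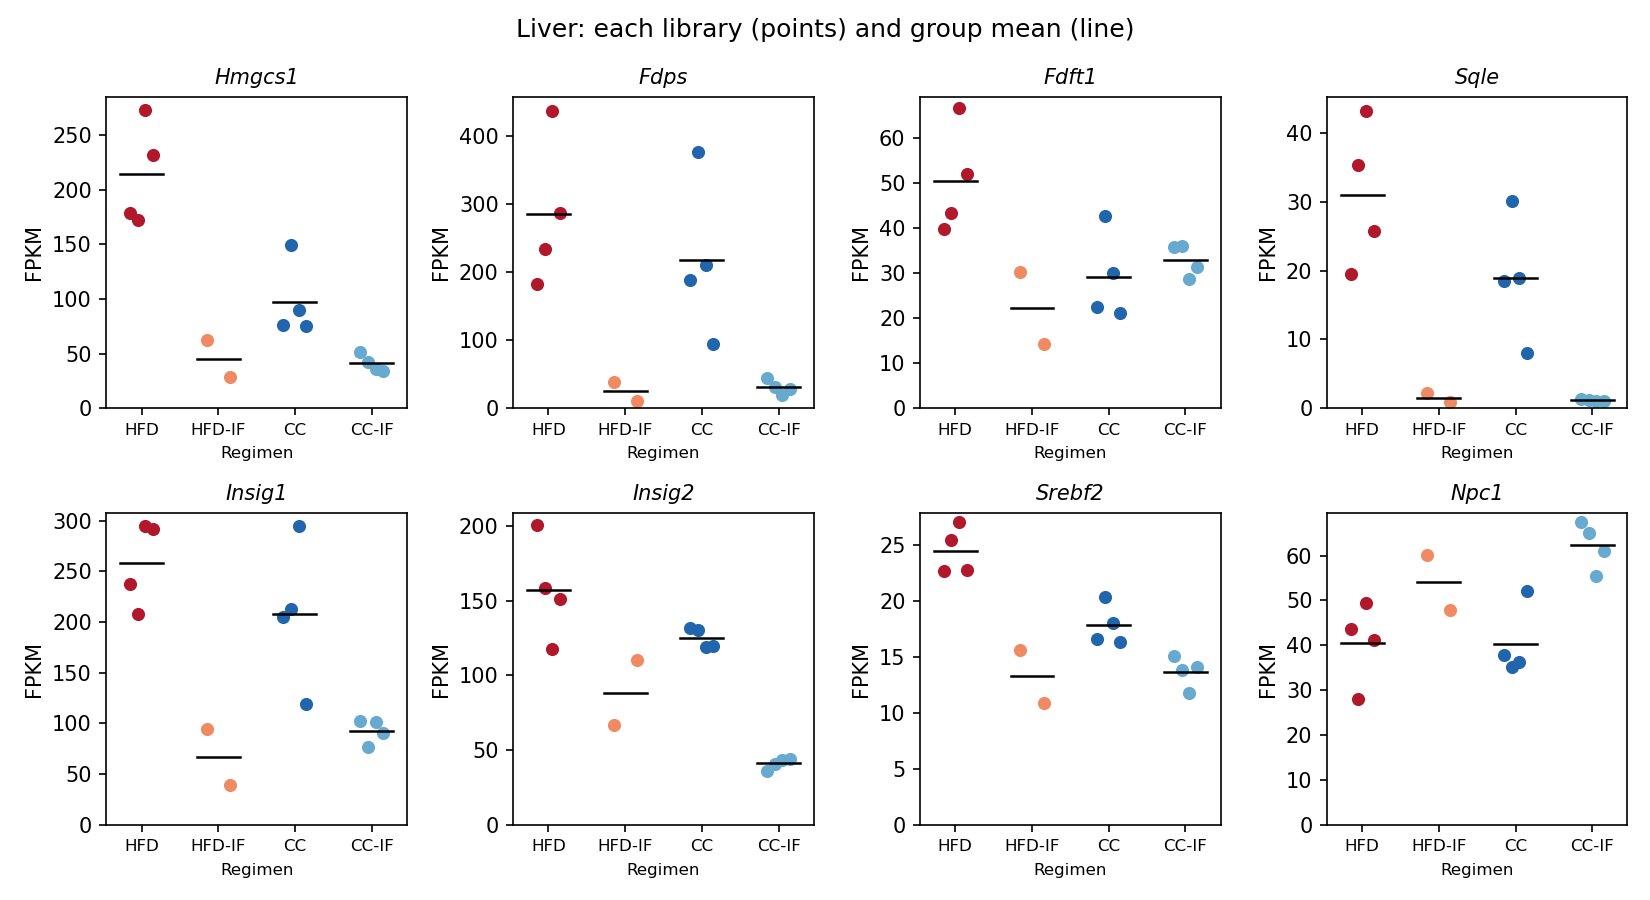
FPKM (vertical axes, from 0) of 8 genes in each liver library (points) by regimen, with the group mean as a line. Sqle lies near 0 in all 6 fasted livers. Fdps lies below all fed livers there, at 11.5 to 38.1 FPKM in HFD-IF and 19.4 to 44.4 FPKM in CC-IF. Insig2 is lowest in the 4 CC-IF livers, Fdft1 overlaps between CC and CC-IF, and Npc1 is higher in CC-IF than in CC.

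Among the 5 transport and esterification genes, Npc1, a membrane protein that exports cholesterol from lysosomes, went the opposite way. It was at 43.7, 27.9, 49.3 and 41.2 FPKM in HFD, 60.1 and 47.9 FPKM in HFD-IF, 37.7, 35.1, 36.2 and 52.0 FPKM in CC, and 67.6, 65.0, 55.5 and 61.1 FPKM in CC-IF. All CC-IF livers lay above all CC livers, and the rise was 0.63 ± 0.17 on the log2 scale (adjusted p = 0.0152, limma). On the high-fat diet the log2 change was 0.43 ± 0.20 (adjusted p = 0.298, limma). Exons of Npc1 overlap those of Rmc1, an opposite-strand gene with no values used here, over 511 bases.

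Stard4, a cytosolic sterol carrier and SREBP2 target, was at 28.4, 29.9, 49.7 and 39.1 FPKM in HFD, 34.7 and 6.34 FPKM in HFD-IF, 26.5, 29.99, 37.0 and 32.8 FPKM in CC, and 19.8, 15.8, 13.6 and 14.6 FPKM in CC-IF. CC-IF and CC did not overlap, with an adjusted p of 0.0731 (limma, -0.95 ± 0.36). The HFD-IF libraries fell on either side: library 0 was within the HFD range and library 1 the lowest of all livers. Npc2, the soluble partner of the Npc1 protein in lysosomes, was at 18.6 FPKM in HFD-IF library 0 and at 28.4 FPKM in library 1, and Soat1, an acyltransferase that esterifies cholesterol and is abundant in macrophages, at 1.02 and 5.82 FPKM. Those 2 values of library 1 were the highest of the 14 livers, in the library whose macrophage markers were also the highest; their part in the values was not tested. Soat2, the acyltransferase of hepatocytes, was at 14.2 to 29.4 FPKM with free access and at 19.7 to 35.1 FPKM in fasted livers and passed in no liver comparison.

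No gene of the LXR arm passed in the comparisons of CC with HFD or of fasting on either diet. Abca1, the pump that loads cholesterol onto apolipoprotein A-I, was at 66.6, 76.4, 63.5 and 58.7 FPKM in HFD, 68.0 and 63.5 FPKM in HFD-IF, 65.4, 58.9, 63.3 and 60.7 FPKM in CC, and 64.8, 62.1, 59.7 and 58.2 FPKM in CC-IF. The groups overlapped throughout, and its log2 changes were -0.09 ± 0.08 for CC against HFD, -0.01 ± 0.10 for HFD-IF against HFD and -0.02 ± 0.08 for CC-IF against CC. Nr1h3, LXR alpha, was at 60.9 to 91.6 FPKM in HFD, 58.5 to 58.8 FPKM in HFD-IF, 56.0 to 64.5 FPKM in CC and 52.1 to 60.5 FPKM in CC-IF. Both fasted groups lay below HFD without overlap (-0.26 ± 0.14 and -0.31 ± 0.11, adjusted p = 0.352 and 0.0657 in limma). Nr1h2, LXR beta, was at 18 to 26.9 FPKM over all livers. Neither Nr1h3 nor Nr1h2 passed in any liver comparison. Mylip, a ubiquitin ligase that targets lipoprotein receptors for degradation, was at 11.1, 7.59, 9.16 and 8.40 FPKM in HFD, 9.80 and 11.3 FPKM in HFD-IF, 10.5, 8.46, 10.3 and 11.2 FPKM in CC, and 14.4, 10.0, 11.3 and 13.3 FPKM in CC-IF. It passed once, in CC-IF against HFD, where it rose by 0.39 ± 0.13 with overlapping groups (adjusted p = 0.0428, limma).

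Both changes at once, chow with fasting against the continued high-fat diet, gave the most calls. In CC-IF against HFD, 20 of 32 genes fell and 2, Npc1 and Mylip, rose; 11.3% of all genes tested were called lower and 12.4% higher. The fallers were 16 of the 19 enzymes, Insig1, Insig2, Srebf2 and Stard4. Sqle was at 3.72% of its HFD mean, Idi1 at 7.83%, Mvd at 8.23% and Fdps at 10.8%, with log2 changes of -3.84 ± 0.33, -3.56 ± 0.42, -2.90 ± 0.38 and -3.15 ± 0.44. The Stard4 call was lost without HFD library 1, 2 or 3 or CC-IF library 1, 2 or 3. The Mylip call was lost without HFD library 1, 2 or 3, CC library 0 or 2, or CC-IF library 0, 2 or 3.

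The fasted groups were then set against each other. In CC-IF against HFD-IF, 1 gene passed, Insig2, which was lower on chow (-1.05 ± 0.20, adjusted p = 0.0443, limma); 0.2% of all genes tested were called lower and 0.391% higher. The median of the 19 enzymes was 0.048. The call of Insig2 was kept when HFD library 0, 1 or 2 or HFD-IF library 0 was left out and lost without any other liver library. Without HFD-IF library 0, 6 genes were called, 4 higher and 2 lower, in a fit that called 15.4% of all genes tested, a share near that of the 32 genes. The 3 enzymes with the smallest p were Tm7sf2 (0.89 ± 0.41), Fdft1 (0.63 ± 0.30) and Acat2 (0.52 ± 0.27), with adjusted p of 0.269, 0.29 and 0.314 in limma.

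Whether fasting acted differently on the 2 diets was tested as an interaction, the change on chow minus the change on the high-fat diet. No gene of the 32 passed in limma, with 9 at an unadjusted p under 0.05 (28.1%, against 18.3% of all genes tested), and 1.11% of all genes tested were called in either direction. The differences of all 19 enzymes were positive, with a median of 0.736 against 0.0364 over all genes, so that the estimates were more negative on the high-fat diet. Fdft1 had the smallest p (1.43 ± 0.39, adjusted p = 0.0906, limma). Without HFD-IF library 0, 11 genes were called in limma, where 15.3% of all genes tested were, and without library 1, 0 genes (3 at an unadjusted p under 0.05), where 0.252% were, with medians of the enzymes of 1.048 and 0.356; 3 of the 19 were negative without library 1. With fasting averaged over both diets, 20 genes fell and 1, Npc1, rose, where 9.43% of all genes tested were called lower and 10.4% higher.

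A further 37 sterol genes that are not in the group, chosen for related roles, were less uniform: in CC-IF against CC, 7 of 35 tested rose and 5 fell, with a median log2 change of 0.057; over all genes tested, 14.2% rose and 9.77% fell, which is near these counts. Among those that rose were Stard5, a sterol carrier (46.6 ± 5.2 FPKM in CC and 83.7 ± 10.2 in CC-IF, SD, n = 4 each), Abcg5, part of the exporter of sterols into bile (36.7 ± 9.9 and 73.1 ± 2.8 FPKM), Lcat, which esterifies cholesterol in plasma lipoproteins (249.8 ± 52.4 and 412 ± 27.6 FPKM), and Nceh1, a cholesteryl ester hydrolase (10.2 ± 3.0 and 16.7 ± 1.7 FPKM). Their adjusted p were 0.000201, 0.00137, 0.00605 and 0.01 in limma. Among those that fell were Acly and Acss2, which supply cytosolic acetyl-CoA (195 ± 104 to 42.1 ± 7.3 FPKM and 86.8 ± 45.0 to 37.0 ± 7.9 FPKM), Lbr, which has sterol reductase activity (6.65 ± 0.69 to 3.94 ± 0.37 FPKM), and Osbp, an oxysterol-binding transfer protein (30.4 ± 3.5 to 17.4 ± 2.3 FPKM). In limma their adjusted p were 0.00303, 0.0371, 0.000408 and 0.000557. In HFD-IF against HFD, 2 of the 35 fell, Acly and Acss2, and 0 rose, where 0.965% of all genes tested fell and 0.357% rose.

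In hippocampus none of the genes passed the test in limma, in any of 7 comparisons. Of the 32 genes, 31 passed the filter; Soat2 is listed at 0 in 9 of 15 libraries and reached at most 0.078 FPKM. Over all 12857 genes tested in hippocampus, 0.00778% were called in either direction for fasting on chow, 0.0622% for fasting averaged over both diets, and 0% in each of the other 5 comparisons. At an unadjusted p under 0.05 the sterol genes numbered 2 for the change to chow, 4 for fasting on the high-fat diet, 5 for fasting on chow, 7 for fasting averaged over diets and 0 for the interaction. They numbered 1 between the fasted groups and 5 for chow with fasting against the continued high-fat diet. As shares of the 31 genes these counts were 6.45%, 12.9%, 16.1%, 22.6%, 0%, 3.23% and 16.1%, against 3.56%, 7.6%, 6.39%, 10.2%, 3.39%, 2.98% and 8.8% of all genes tested, in the same order. In simulated normal data with these group sizes, genes were changed at several sizes together. For CC-IF against CC, changes of 1 on the log2 scale were recovered in 96% of genes and changes of 0.5 in 60%. Such shares depend on the number of genes changed, and in the measured data only 0.00778% of genes were called for this comparison. The simulated shares therefore do not show how often changes of these sizes would be called among the sterol genes here.

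Hippocampal estimates were small. For CC-IF against CC the 19 enzymes had a median log2 change of -0.115, with a range from -0.332 to 0.223, against -0.0164 over all genes tested, and 15 of 19 were negative. Idi1 was at 12.04, 10.4, 10.1 and 11.6 FPKM in CC and at 7.84, 9.16 and 8.62 FPKM in CC-IF, without overlap (-0.33 ± 0.11, adjusted p = 0.532, limma). Dhcr7 was at 9.37, 8.51, 8.42 and 8.69 FPKM in CC and at 7.12, 7.33 and 7.16 FPKM in CC-IF, also without overlap (-0.25 ± 0.08, adjusted p = 0.478, limma). Sqle was at 9.62 to 11.9 FPKM in CC and at 8.90 to 10.5 FPKM in CC-IF, and Insig2 at 11.5 to 13.8 and at 11.2 to 13.3 FPKM. In hippocampus 6 libraries had lower upper quartiles (8.18 to 8.66 FPKM) than the other 9 (9.10 to 9.25 FPKM). They came from all 4 regimens but unevenly: CC-IF libraries 0 and 2, CC library 2, HFD libraries 0 and 2 and HFD-IF library 2. With that class as a term, the enzymes' median log2 change for CC-IF against CC was -0.041, with 13 of 19 negative. The median over all genes tested was then 0.029. In the same fit 1 gene, Idi1, was called for fasting averaged over diets (log2 change -0.26, adjusted p = 0.0444 in limma). Of all genes tested, 123 (0.957%) were called there. The smallest unadjusted p was that of Nr1h3 in CC-IF against HFD (log2 change -0.45 ± 0.12, adjusted p = 0.268, limma). Beside it, 5 markers of the meninges summed to 15.9 to 24.1 FPKM in HFD and 9.47 to 12.2 FPKM in CC-IF, without overlap, and 5 choroid plexus markers to 9.73 to 44.8 and 7.46 to 28.7 FPKM, with overlap. No marker of either list is at 0 throughout these groups, and their part in the Nr1h3 value was not tested. Hepatocyte markers other than Ttr, which the choroid plexus also makes, were below 1 FPKM in every hippocampal library.

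**Figure D4:**
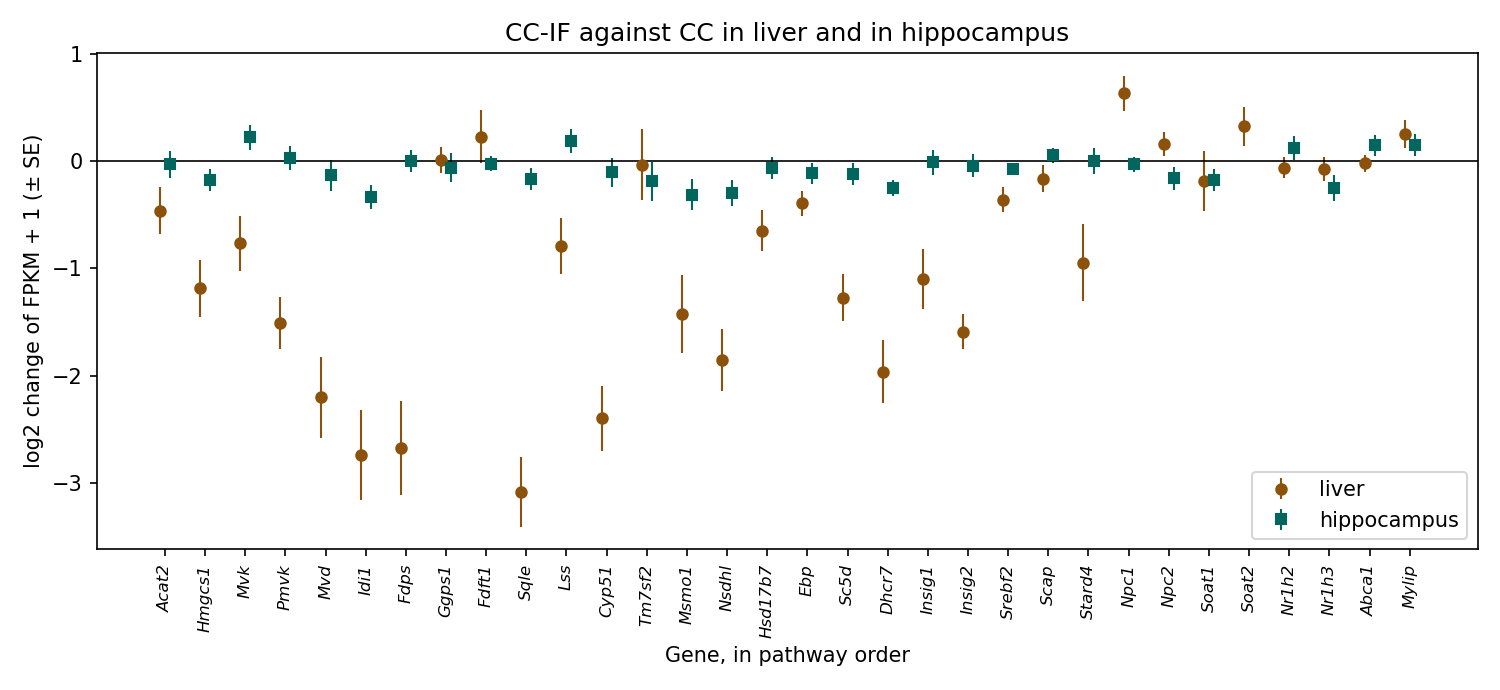
Log2 change of FPKM + 1 (vertical axis, with standard error) in CC-IF against CC for each gene, in liver (circles) and hippocampus (squares). Liver enzymes reach -3.08, while the hippocampal enzymes stay between -0.332 and 0.223; Soat2 has no hippocampal point.

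The difference between the tissues was tested directly on 31 of the genes, over 9939 genes expressed in both. That fit used a shared estimate of each gene's spread for both tissues. For HFD-IF against HFD the standard error of the difference was 0.506 for Fdps, against 0.533 in liver alone. It was 0.385 against 0.399 for Sqle and 0.281 against 0.265 for Acat2. For genes that vary more in liver, p-values of the tissue differences can therefore be too small. For HFD-IF against HFD, 19 genes fell further in liver than in hippocampus (16 enzymes, Insig1, Insig2 and Srebf2), where 1.16% of all genes did. For CC-IF against CC, 14 genes fell further in liver (12 enzymes, Insig1 and Insig2), where 4.96% of genes did, and Npc1 was the single gene with a larger rise (0.66 ± 0.19, adjusted p = 0.018, limma), where 8.79% of genes did. The difference for Sqle was -3.42 ± 0.39 on the high-fat diet and -2.92 ± 0.36 on chow (adjusted p = 3.16e-05 and 6.52e-06, limma). For CC against HFD, Hmgcs1 (-1.25 ± 0.29, adjusted p = 0.0256) and Msmo1 (-1.55 ± 0.39, adjusted p = 0.0444) differed in limma, where 1.21% of genes were lower; both calls were lost under quantile normalization. Without HFD-IF liver library 1 the calls for HFD-IF against HFD went from 19 to 11, where 0.624% of all genes were called in either direction. Without HFD-IF liver library 0, 24 genes were called, where 11.6% of all genes were.

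The genes also differed in their standing levels. On chow with free access, 27 of 31 were higher in liver than in hippocampus and 3 lower (Ggps1, Srebf2 and Soat1), where 44.7% of all genes expressed in both tissues were higher in liver and 35.6% lower. Mvk did not pass. Nr1h3 was at 56.0 to 64.5 FPKM in CC livers and at 0.873 to 1.53 FPKM in CC hippocampi, a log2 difference of 4.77 ± 0.11. Ebp and Sc5d, a sterol isomerase and lathosterol oxidase, had log2 differences of 4.23 ± 0.10 and 3.92 ± 0.17 (adjusted p = 7.33e-23 and 2.05e-17, limma). Srebf2 went the other way, at 16.3 to 20.4 FPKM in CC livers and 39.5 to 43.1 FPKM in CC hippocampi (-1.18 ± 0.09, adjusted p = 3.2e-12, limma). Sqle, Msmo1 and Hmgcs1 differed least among the enzymes called higher in liver apart from Fdft1, and under quantile normalization between libraries they did not pass (adjusted p = 0.116, 0.25 and 0.159, limma). Sqle was close in the fed tissues, at 8 to 30.2 FPKM in CC livers and 9.62 to 11.9 FPKM in CC hippocampi, so that the CC-IF livers, at 1.01 to 1.36 FPKM, lay below every hippocampal library. How tissues were scaled to each other is not stated, and levels across tissues are relative to all messenger RNA in each.

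**Figure D5:**
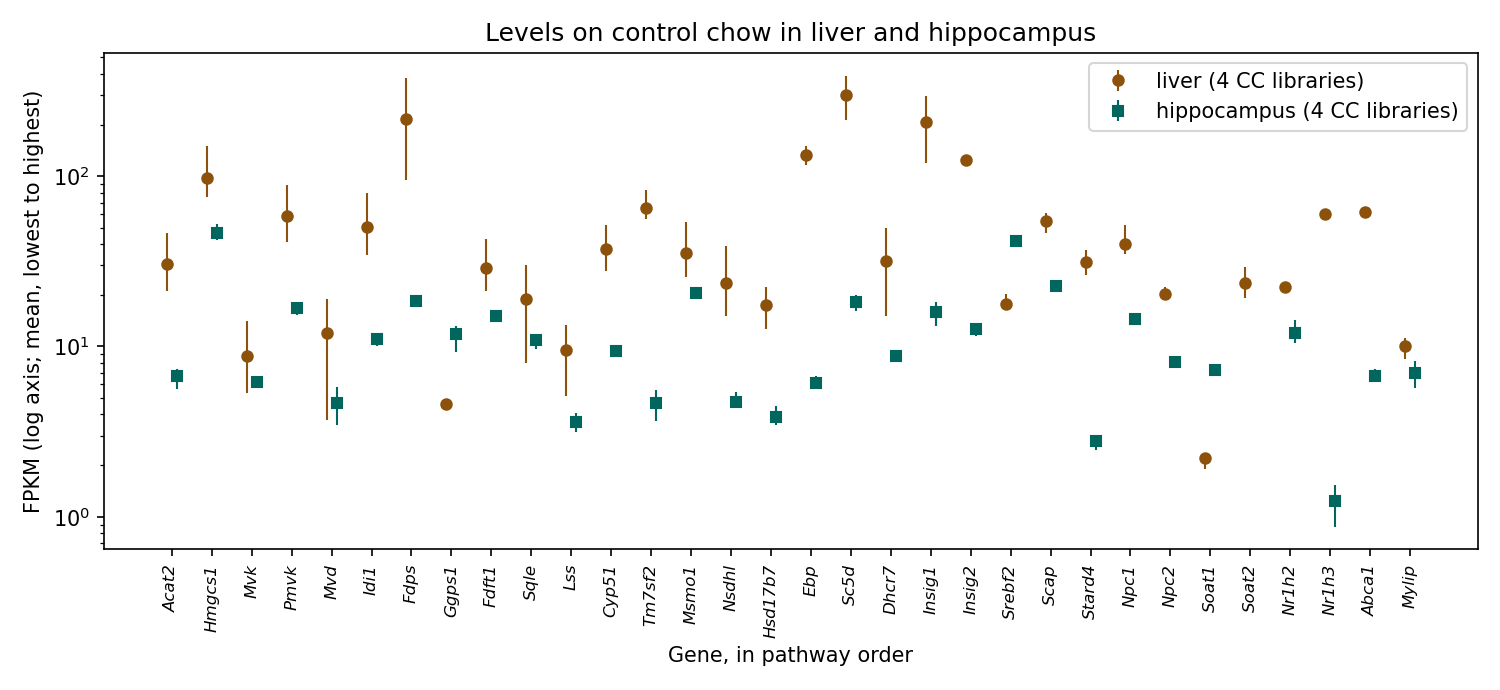
FPKM on a log axis (mean, with bars from the lowest to the highest of 4 CC libraries) for each gene in liver (circles) and hippocampus (squares). Liver lies higher for most genes, and hippocampus lies higher for Ggps1, Srebf2 and Soat1; Soat2 has no hippocampal point because it is listed at 0 in a CC library.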

How the data were processed

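RNA from liver and hippocampus of the mice (about 20 mg of tissue, polyadenylated RNA from 1 µg, paired reads of 125 nt) was sequenced in 29 libraries. The authors deposited 1 table of FPKM values for 24346 genes. The submitters' processing notes name TopHat2 2.1.1, Bowtie2 2.3.5.1, Trimmomatic 0.39 and FastQC 0.11.9 as software, and GRCm38 as genome. How FPKM were computed (software, gene models, scaling, use of strand) is not given in the sources used here. The table holds no counts; steps in its low values, of which 63.5 to 80.8% came out whole to a tolerance of 0.2 (40% by chance), allow an approximate depth only, and no count test was run.

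Values were analysed as log2(FPKM + 1) with limma 3.58.1 (R 4.3.3) on genes with a mean of at least 1 FPKM in the tissue (12857 in hippocampus), with 1 term per regimen in each tissue, empirical Bayes with a trend, and Benjamini-Hochberg adjustment over all genes tested. The labels call the libraries of a group replicates; p-values measure the spread between these libraries. The table's column numbers are not tied to numbered samples. Within a tissue, same-numbered libraries of different groups had a median correlation of deviations of 0.032 in liver and 0.045 in hippocampus. Liver and hippocampal libraries were not compared in this way. The tissue tests treated all libraries as independent, because the columns may not show which libraries share an animal. The script was tested on simulated normal data with 50 genes changed at each size from 0.5 to 3. Of genes changed by 1 on the log2 scale, 88%, 78% and 90% were recovered in liver for CC against HFD, HFD-IF against HFD and CC-IF against CC. Of genes changed by 0.5, 38%, 32% and 40% were recovered. The shares depend on the number of genes changed. Gene positions and exon overlaps come from the GRCm38 annotation, and promoters from RefSeq.

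The 32 genes, the 37 further sterol genes and the marker lists were chosen with earlier results of these data known. Every library's value is given for the 3 enzymes with the smallest p in each liver comparison with a call, for called genes of the control, transport and LXR groups, and for Insig1, Insig2, Srebf2 and Abca1; of the further sterol genes, up to 4 per direction with the smallest p are named. Alternatives were a pseudocount of 0.1, no filter or a filter of 5 FPKM, median centring, quantile normalization, the compared groups alone, the column number as a block, and leaving out each library. A few genes of related function are not reported here.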

Additional observations from a re-analysis of the deposited data

Results flagged for a closer look

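Single libraries stood apart from the other 3 of their group, by a gap above Dixon's 95% critical value, in 12 of the 192 groups of 4 libraries examined; chance gives about 1 in 20. Of these, 4 came from hippocampal HFD-IF library 3: Hmgcs1 at 47 FPKM (39.2 to 40.1 in the others), Cyp51 at 11.1 FPKM (7.25 to 7.89), Mvk at 8.58 FPKM (5.82 to 6.25) and Acat2 at 8.23 FPKM (6.35 to 6.59). In the hippocampus Ggps1 was low in CC library 2, at 9.24 FPKM, while Msmo1 was high in CC library 1, at 22.3 FPKM, and Lss in HFD library 3, at 4.76 FPKM. Soat2 is listed at 0.0365 FPKM in HFD library 1 and at 0.0562 FPKM in HFD-IF library 3, where the other libraries of each group are at 0. In liver, CC library 3 had the highest Npc1 of its group, 52 FPKM (35.1 to 37.7), and the lowest Soat1, 1.9 FPKM (2.3 to 2.37), and Nr1h2 was at 26.9 FPKM in HFD library 1 (21.7 to 22.2).

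The tissues differed in 36 log2 changes, tested as liver minus hippocampus. The spread was shared by both tissues in that test, which can make p-values too small for genes that vary more in liver. For CC against HFD these were Hmgcs1 -1.25 and Msmo1 -1.55. For HFD-IF against HFD the differences among the synthesis enzymes were Acat2 -1.60, Hmgcs1 -2.21, Mvk -1.91, Pmvk -1.89, Mvd -2.31, Idi1 -3.25, Fdps -3.50, Sqle -3.42, Lss -1.70, Cyp51 -2.34, Msmo1 -2.47, Nsdhl -2.67, Hsd17b7 -1.14, Ebp -0.65, Sc5d -1.39 and Dhcr7 -2.58, and among the control genes Insig1 -1.94, Insig2 -0.88 and Srebf2 -0.82. For CC-IF against CC they were Hmgcs1 -1.01, Mvk -0.99, Pmvk -1.54, Mvd -2.07, Idi1 -2.41, Fdps -2.68, Sqle -2.92, Lss -0.98, Cyp51 -2.29, Nsdhl -1.56, Sc5d -1.15, Dhcr7 -1.71, Insig1 -1.09 and Insig2 -1.55, with Npc1 at 0.66. Every negative value stands for a more negative change in liver, and Npc1 is the one positive value.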

How the results depend on the processing

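No called value reversed its direction under any setting tried. Of 1 gene called for CC against HFD in liver, 0 were called with no filter, 0 with quantile normalization, 0 with the replicate block, 2 with a filter of 5 FPKM and 3 with the compared groups alone; leaving out 1 library gave 0 to 4. For HFD-IF against HFD, 3 were called with the compared groups alone and 0 to 24 when 1 library was left out. For CC-IF against HFD-IF, 0 were called with no filter, with the replicate block or with the compared groups alone, and 0 to 6 with 1 library left out; the interaction gave 0 to 11. With the replicate block, HFD-IF against HFD had 13 calls, CC-IF against CC 16 and CC-IF against HFD 23. The column numbers are not known to pair the samples. In hippocampus, 1 gene (0.957% of all genes) was called for fasting averaged over diets with the class of upper quartile as a term, chosen after seeing the data. For the tissue difference in CC against HFD, 1 gene was called with a pseudocount of 0.1, with no filter, with median centring or with the replicate block, 0 with quantile normalization, and 0 to 6 without 1 library; in HFD-IF against HFD, 11 to 24 without 1 library. Calls kept under every setting numbered 0 of 1 for CC against HFD, 0 of 18 for HFD-IF against HFD, 14 of 19 for CC-IF against CC, 0 of 1 for CC-IF against HFD-IF, 20 of 22 for CC-IF against HFD and 19 of 21 for fasting averaged over diets in liver. For the tissue differences they numbered 0 of 2 for CC against HFD, 10 of 19 for HFD-IF against HFD and 10 of 15 for CC-IF against CC, and for tissue levels on chow 27 of 30. The causes were not tested. At this size the self-test recovered fewer than 1 in 2 changes of 0.5 in liver, so smaller differences may be missed.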
